A study of Mus musculus with 5 samples.

Results

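The array of 32D cells carrying the construct ITD602 was compared with the arrays of the constructs ITD598 and ITD611. These 3 arrays were chosen by their labels out of 5 in the series, and the difference described is the ITD602 level minus the mean of the ITD598 and ITD611 levels. 32D is a murine myeloid progenitor line that normally needs interleukin-3 to grow. All 3 cultures had been stably transduced with a retrovirus carrying FLT3 with an internal tandem duplication (ITD), a mutation that lets this receptor tyrosine kinase signal without its ligand. Every culture, ITD78 and ITD613 included, had 3 h of starvation and then 1 h with a tyrosine kinase inhibitor (TKI) that the labels do not name, so the treatment is shared and is not what is compared. The labels do not say what the construct numbers mean, whether the receptor is the mouse or the human one, or whether a line is 1 clone. The title of the ITD602 array carries another date than the titles of the other 4 arrays, so construct and date cannot be told apart.

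Each construct has 1 array, so no difference was tested and no p-value is given. The difference between ITD598 and ITD611 is the only spread at hand, and it holds any real difference between those constructs. Levels are deposited log2 RMA values, in which a difference of 1 is 2-fold, and each gene was read from whichever of its probe sets was highest on average on these 3 arrays. Of 18193 genes with a probe set, 7617 had a mean level above 3.74, the highest value that at least 100 probe sets of 1 of these arrays shared. A gene was called when it differed at least 1.5-fold, when this difference was larger than that between ITD598 and ITD611, and when ITD602 lay beyond both.

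FLT3-ITD drives growth of myeloid cells through STAT5 and the RAS and PI3K pathways, and an inhibitor of the kinase shuts these off. Myeloid progenitor lines keep traces of several blood programmes, among them granule proteins of neutrophils, macrophage receptors, and red cell genes under the transcription factors GATA1 and KLF1. The embryonic globins Hba-x, Hbb-bh1 and Hbb-y are the oxygen carriers of the first red cells of the embryo and are normally silenced in adult blood.

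The labelled cell type was checked against markers of blood and other lineages. Above the low-value limit on the ITD602 array were 7 of 11 measured neutrophil markers, 3 of 7 of macrophages, 3 of 4 of megakaryocytes, 2 of 5 of red cells and 2 of 9 of mast cells. None of 5 lymphoid markers was above it, and 1 of 7 stromal, endothelial and epithelial markers was, Pecam1. The summed level of the neutrophil markers was 58.6 on ITD598, 45.1 on ITD611 and 55.1 on ITD602, and that of the red cell markers was 19.6, 19.3 and 18.7. Fewer cells of a type and less RNA per cell cannot be told apart on these arrays. The mouse Flt3 probe set read 1.94 on ITD598, 1.74 on ITD611 and 1.90 on ITD602, below the limit on each. Median levels of the 3 arrays were 2.05, 2.04 and 1.99. The spiked bacterial bioB control averaged 6.10 on ITD602 against 2.45 on ITD598 and 2.83 on ITD611, while bioC, bioD and cre differed by at most 0.24 from the mean of those arrays. The poly-A spike controls dap, lys, phe and thr were higher on ITD611 than on ITD598, dap at 6.37 against 5.09 and thr at 3.55 against 2.69, with ITD602 between (5.50 and 3.11). The part of these controls in the results was not tested.

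Few genes separated the ITD602 array from the others. Of the 7617 genes, 19 (0.249%) were called higher on ITD602 and 65 (0.853%) lower, together 84 (1.10%). At 2-fold or more, 8 genes (0.105%) were lower and 0 (0%) higher. The same sizes separated ITD598 from ITD611 in 34 genes (0.446%), 21 of them higher on ITD598, and in 7 genes (0.0919%) at 2-fold. That count sets a single array against another with no rule on spread, so it is not like the 84. Counted in that way at 1.5-fold, ITD602 was higher than ITD611 in 33 genes and lower in 57. Against ITD598 alone it was higher in 36 and lower in 109. The SD over genes was 0.20 for the ITD602 difference and 0.16 for ITD598 minus ITD611, again unlike measures. ITD602 lay above the mean of the others in 63.6% of genes, with a median difference of 0.05. Genes higher on ITD602 were 22.6% of those called, 6.0% after a lowess correction for level, and 41.2% (14 higher and 20 lower) when the probe sets of a gene were averaged. Of the genes that passed 1.5-fold, 5 were not called because ITD598 and ITD611 lay further apart than that, S100a8 among them.

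**Figure D1:**
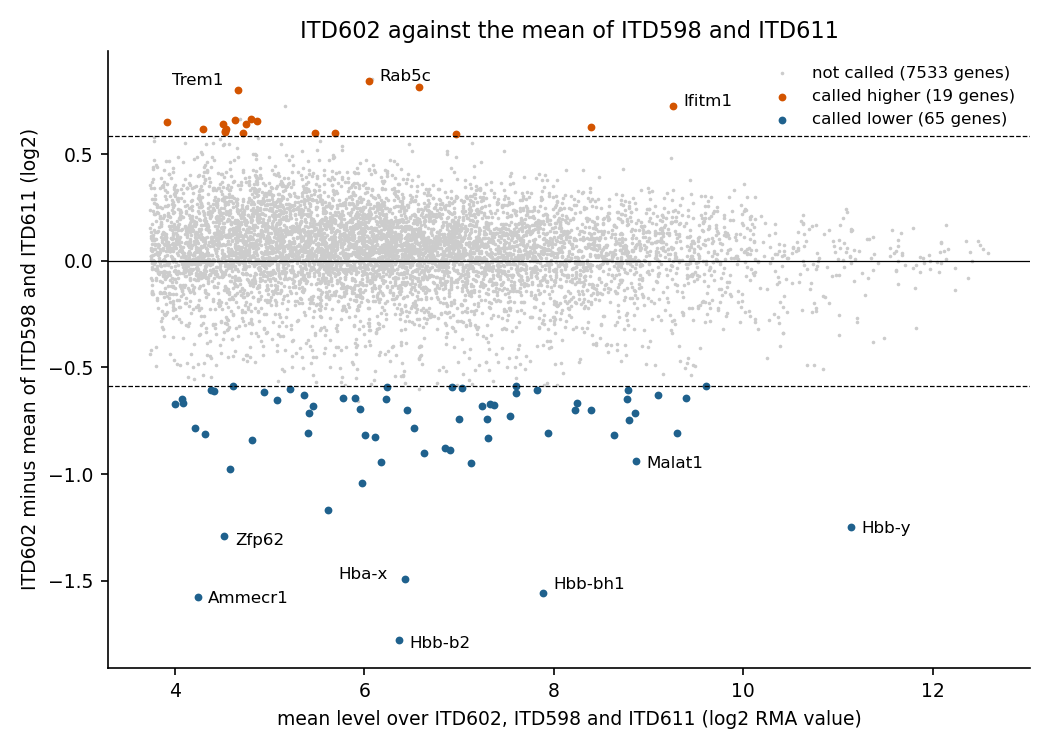
Difference of the ITD602 array from the mean of ITD598 and ITD611 (log2, y axis) against the mean level over the 3 arrays (log2 RMA value, x axis), 1 point per gene kept, with dashed lines at 1.5-fold. The 8 genes beyond 2-fold all lie on the lower side, 4 of them globin genes, and the called higher genes have a median level of 4.75 against 6.52 for the called lower genes.

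The clearest group was that of the globins. Of 6 globin genes with a probe set, 4 passed the filter on low values, and all 4 were lower on ITD602 by more than 2-fold, with a median difference of -1.53 against 0.05 over all genes. These were Hba-x, the embryonic zeta chain of the alpha family, and Hbb-bh1, Hbb-y and Hbb-b2 of the beta family. Adult Hba-a1 and Hba-a2 read at most 2.31 on each of the 3 arrays and could not be compared.

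The promoters of Hba-x and Hbb-y are shown because both genes were among these 4 and GATA1 and KLF1 are known regulators of globin genes. The sequences are the 250 bases before the gene's start from RefSeq on build GRCm38.p6, and capitals mark letters these factors are known to bind. The first is TGATAA, the GATA factor motif, which reads TTATCA on the other strand. The second is CCACCC, the core letters that KLF1 binds.
Hba-x, chr11:32276350-32276599, plus strand: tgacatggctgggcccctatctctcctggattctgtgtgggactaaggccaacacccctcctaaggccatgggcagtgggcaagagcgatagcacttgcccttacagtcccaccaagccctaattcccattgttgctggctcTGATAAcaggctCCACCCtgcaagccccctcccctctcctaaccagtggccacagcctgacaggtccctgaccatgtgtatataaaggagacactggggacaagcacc
Hbb-y, chr7:103853208-103853457, minus strand: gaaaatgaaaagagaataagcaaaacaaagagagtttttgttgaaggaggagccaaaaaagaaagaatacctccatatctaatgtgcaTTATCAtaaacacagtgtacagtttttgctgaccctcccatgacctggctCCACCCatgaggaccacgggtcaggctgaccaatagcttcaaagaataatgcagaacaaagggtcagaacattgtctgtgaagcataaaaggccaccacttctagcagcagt
In Hba-x the GATA letters begin 108 bases before the start and CCACCC 96 bases before it, and in Hbb-y they begin 162 and 112 bases before it. Of 32851 RefSeq promoter windows of this length, 16.6% hold AGATAA or TGATAA and 28.1% hold CCACCC on either strand. CCACCC was chosen after the differences had been seen, and a match describes the sequence, not a bound site.

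Hba-x read 7.13 on ITD598, 6.73 on ITD611 and 5.44 on ITD602. ITD602 was 2.82-fold below the mean of the others (-1.49, against a spread of 0.41). The ITD78 array read 10.1 and ITD613 11.3, so that ITD602 was the lowest of all 5 arrays.

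Hbb-bh1 read 8.65 on ITD598, 8.16 on ITD611 and 6.85 on ITD602, a difference of -1.56 with a spread of 0.49. Its 2 other probe sets gave -1.43 and -1.41, so every probe set of the gene placed ITD602 below both arrays.

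Hbb-y, the embryonic beta-type chain, was at 11.7 on ITD598, 11.4 on ITD611 and 10.3 on ITD602. The difference was -1.25 with a spread of 0.37, and its 2 other probe sets gave -1.36 and -1.21. Hbb-y and Hbb-bh1 are direct neighbours in the annotation.

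Hbb-b2, an adult beta chain, read 7.41 on ITD598, 6.51 on ITD611 and 5.18 on ITD602, a 3.43-fold difference (-1.78, spread 0.90). This value came from a probe set whose name ends in _x_at, the manufacturer's mark for probes that may also match related transcripts. The probe sets used for Hbb-bh1 and Hbb-y end in _x_at too, but both other probe sets of Hbb-bh1 and 1 of the other 2 of Hbb-y end in _a_at, which does not carry that mark. The other Hbb-b2 probe set read 1.81, 1.90 and 2.44 on these arrays, below the limit, and whether the value attributed to Hbb-b2 is shared with other beta globins was not tested.

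The other red cell genes differed less. Klf1, a transcription factor that switches on red cell genes, read 7.36 on ITD598, 7.08 on ITD611 and 6.68 on ITD602, a difference of -0.53 with a spread of 0.28, under 1.5-fold. Gata1, the master regulator of the lineage, read 6.29, 6.05 and 5.84. None of the 13 erythroid transcription factors kept was called, where 1.1% of all genes were, and their median difference was 0.01. Gfi1b (5.66, 5.54 and 5.59) and Nfe2 (6.75, 6.56 and 6.69) had ITD602 between the other arrays.

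Of 7 red cell membrane and blood group genes kept, 1 was called lower (0.853% of all genes) and 1 lay above the mean of ITD598 and ITD611 (63.6% of all genes), with a median of -0.19. The called gene was Ank1, the ankyrin that ties the membrane to its spectrin skeleton, at 4.22 on ITD598, 4.22 on ITD611 and 3.55 on ITD602. The ITD602 value lies under the low-value limit, so its 1.59-fold size is uncertain. The Kell antigen gene Kel read 5.17, 5.22 and 4.86.

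Among 13 heme and iron genes 0 were called, where 1.1% of all genes were, and the median was -0.003. ITD602 lay above the mean of ITD598 and ITD611 in 6 of the 13, against 63.6% of all genes. The furthest above was Hmox1, by 0.15. Within this list the porphyrin enzymes Alad (8.92, 8.55 and 8.34), Urod (8.26, 8.05 and 7.88) and Cpox (5.82, 5.16 and 5.04) and the biliverdin reductase Blvrb (7.91, 7.42 and 7.34) were lowest on ITD602. For Cpox and Blvrb the spread of 0.65 and 0.49 was larger than the difference of -0.45 and -0.33. Fech, which inserts the iron, read 6.09, 6.05 and 6.05.

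Many red cell genes kept 1 order over the 5 arrays, ITD602 lowest, then ITD598 and ITD611, then ITD78 and ITD613. It was seen in 11 of 24 genes of the globin, erythroid transcription factor and red cell membrane lists that passed the filter, and in 7.71% of all genes kept. This order was looked for after the values had been seen, and the lists were chosen with earlier results known. The 11 genes were Gata1, Klf1, Tal1, Gypc, Ank1, Kel, Icam4 and the 4 globins. Ank1 and the 4 globins were called lower, and lying below ITD598 and ITD611 is part of that call. For Tal1 ITD602 was barely below ITD611 (8.23 against 8.24). Klf1 read 8.44 on ITD78 and 10.0 on ITD613, and Gata1 7.01 and 8.14.

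**Figure D2:**
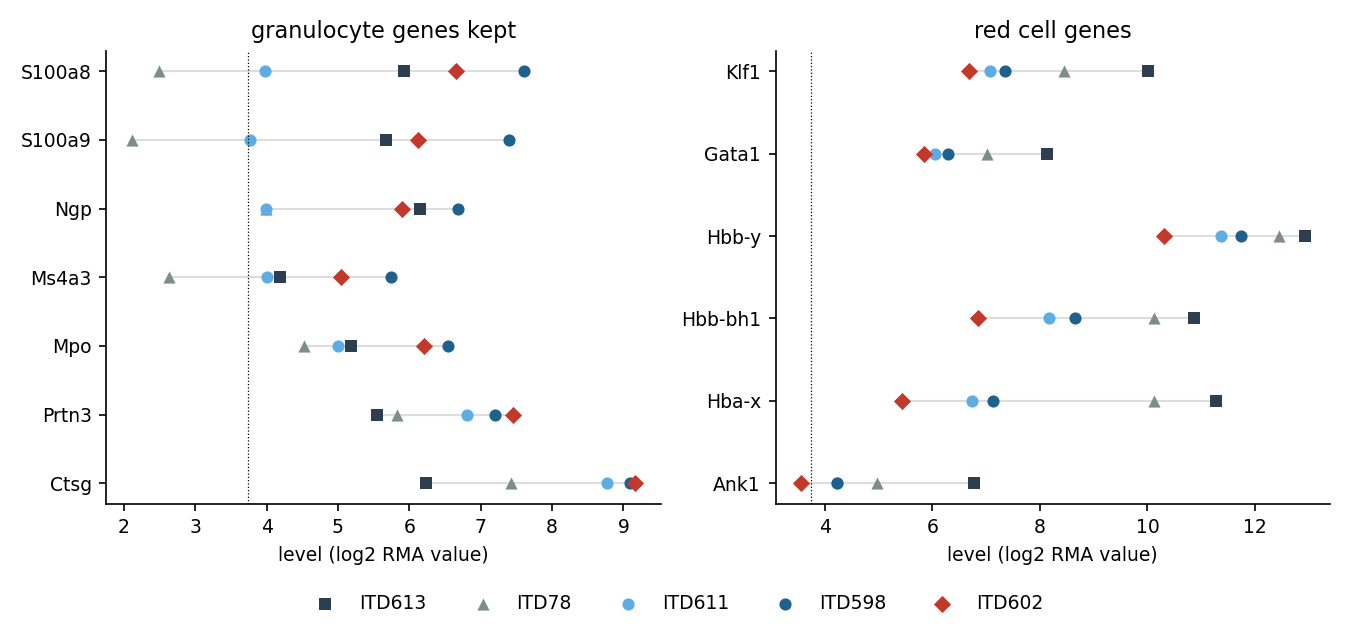
Levels (log2 RMA value, x axis) of the 7 granulocyte genes kept and of 6 red cell genes on the 5 arrays, 1 point per array, with the low-value limit of 3.74 dotted. The 6 red cell genes shown were picked from those with ITD602 as the lowest array. Of the 24 genes kept on the globin, erythroid transcription factor and red cell membrane lists, ITD602 was lowest in 13, against 16.2% of all genes. For the globins and Ank1, called lower, lying below ITD598 and ITD611 is part of the call. For S100a8, S100a9, Ngp, Ms4a3 and Mpo ITD602 lies between ITD598 and ITD611.

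Granulocyte genes behaved otherwise. All 7 of 20 measured neutrophil genes that passed the filter lay above the mean of ITD598 and ITD611, with a median of 0.45. Of these 7, 0 were called, where 1.1% of all genes were. Against ITD611 alone the median was 1.21, and against ITD598 alone it was -0.69. S100a8, a calcium-binding protein of neutrophils, read 7.61 on ITD598, 3.98 on ITD611 and 6.65 on ITD602, and its partner S100a9 read 7.39, 3.77 and 6.12. The granule protein gene Ngp read 6.69, 3.99 and 5.90. The myeloperoxidase gene Mpo read 6.55, 5.00 and 6.21. Of the 3 arrays ITD611 was the low one for these genes, although ITD78 was lower still for S100a8 (2.49), S100a9 (2.11) and Mpo (4.52). On ITD613 they read 5.93, 5.67 and 5.18. For these genes ITD598 minus ITD611 (1.55 to 3.64) was larger than any ITD602 difference (at most 0.85). On the ITD611 array the 18S control also averaged 9.20, against 8.20 on ITD598 and 8.34 on ITD602, and Actb probe sets differed by 1.56 between the 3' and 5' ends, against 1.25 and 1.19. Their part in the result was not tested. The proteases Prtn3 (7.20, 6.81 and 7.45) and Ctsg (9.09, 8.77 and 9.17) were slightly highest on ITD602.

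On the macrophage list 0 of 7 were called, where 1.1% of all genes were, with a median of 0.23. Adgre1, the F4/80 antigen, read 6.51 on ITD598, 6.91 on ITD611 and 7.21 on ITD602, and Fcgr1, the high-affinity IgG receptor, read 5.25, 5.48 and 5.83. The differences of 0.50 and 0.47 were under 1.5-fold. Fcgr2b, an inhibitory IgG receptor, lay slightly the other way (5.35, 5.26 and 5.24). Csf1r, the receptor of the macrophage growth factor, read 3.96, 3.66 and 3.66. Its ITD611 and ITD602 values were equal and under the low-value limit, so its direction is uncertain. On ITD78 and ITD613 Adgre1 and Fcgr1 were at most 3.87.

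The genes called higher on ITD602 were few and small in size. Trem1, an activating receptor of neutrophils and monocytes, read 4.44 on ITD598, 4.36 on ITD611 and 5.20 on ITD602, a 1.75-fold difference (0.80, spread 0.07). It read 3.51 on ITD78 and 3.14 on ITD613, so ITD602 was the highest of the 5 by 0.77.

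Ifitm1, an interferon-induced membrane protein that hinders virus entry, read 8.86 on ITD598, 9.17 on ITD611 and 9.74 on ITD602 (0.72, spread 0.31). Its direct neighbour Ifitm3 read 8.21, 8.16 and 8.81 (0.63, spread 0.05). ITD602 was above both arrays for each, and ITD78 and ITD613 lay between 6.22 and 7.25. Against ITD611 alone Ifitm1 differed by 0.57, which is under 1.5-fold. Ifitm2 of the same cluster read 7.08, 6.99 and 7.29 and was not called.

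The other 5 interferon-stimulated genes kept were not called, so the list had 2 higher of 7, against 0.249% of all genes, and a median of 0.11. Bst2 read 5.33, 5.40 and 5.48, and Irf1 read 4.82, 4.80 and 4.52. The 2 called genes are thus neighbours. Ifitm2 was also highest on ITD602, at a smaller difference (0.25, spread 0.09). The remaining genes kept, Bst2, Irf1, Ifit2 and Oas1a, differed by 0.11, -0.28, -0.01 and 0.08.

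Ccl3, a chemokine that attracts monocytes, read 4.16 on ITD598, 4.42 on ITD611 and 4.93 on ITD602 (0.64, spread 0.27). It was the only one called of 5 cytokine, chemokine and activation genes kept, where 1.1% of all genes were called. The cytotoxic granule protein Nkg7 read 3.98, 3.42 and 4.35, with ITD611 under the low-value limit. Nkg7 was the single gene kept of 13 measured lymphoid genes.

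Other genes called higher have varied roles. Rab5c, a GTPase of early endosomes, read 5.68 on ITD598, 5.85 on ITD611 and 6.61 on ITD602, the largest called difference on this side (0.84, 1.79-fold). Chtf8, a subunit of a clamp loader of DNA replication, read 6.26, 6.34 and 7.12, but ITD78 was at 7.05, so ITD602 exceeded the highest of the other 4 arrays by 0.06. The mitotic transcription factor Foxm1 read 4.40, 4.26 and 4.95, but its 2 other measured probe sets differed by 0.10 and 0.15 against 0.62. Of 24 mitosis genes 0 were called, where 1.1% of all genes were, and their median was -0.03.

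Rapsn, which anchors acetylcholine receptors at the muscle synapse, read 4.70, 4.46 and 5.25. The collagen-modifying protein gene Crtap read 4.29, 4.53 and 5.07, the selenoprotein gene Selenom 4.53, 4.77 and 5.31, and the sodium-calcium exchanger Slc24a3 4.53, 4.54 and 5.17. Smurf1, a ubiquitin ligase, read 3.93, 4.25 and 4.71, the lipid droplet protein gene Plin3 4.41, 4.23 and 4.93, and the splicing factor gene Bud13 4.39, 4.27 and 4.93. All 19 genes called higher were above each of the other 4 arrays, 4 of them (Trem1, Ifitm3, Slc24a3 and Plekhg3, the last named after its values were seen) by at least 1.5-fold. Lying above ITD598 and ITD611 is part of the call. In 12 of the 19 both ITD78 and ITD613 lay below ITD598 and ITD611. The shares of all genes for these counts are not given here.

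**Figure D3:**
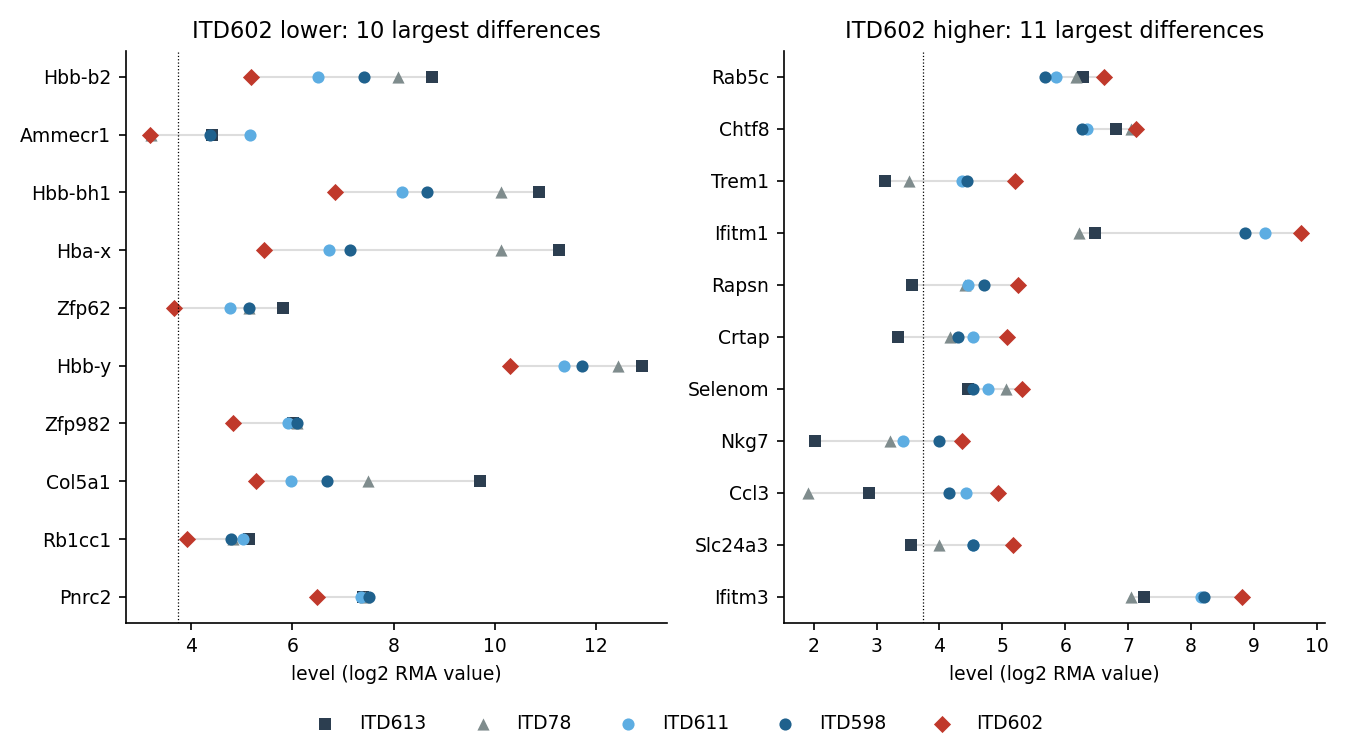
Levels (log2 RMA value, x axis) on the 5 arrays of the 10 genes with the largest called differences on the lower side and the 11 on the higher side, 1 point per array, with the low-value limit of 3.74 dotted. For the globins and Col5a1 the ITD78 and ITD613 arrays lie above ITD598 and ITD611, while for Zfp982, Rb1cc1 and Pnrc2 ITD602 stands apart from 4 close arrays.

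The remaining genes called lower were mixed in function. Of the 65, 60 were below each of the other 4 arrays, 29 of them by at least 1.5-fold. Lying below ITD598 and ITD611 is part of the call, and ITD602 was the lowest of 5 arrays in 16.2% of all genes kept. In 41 of the 65 the other 4 arrays lay within 1.5-fold of one another, and in 16 both ITD78 and ITD613 were above ITD598 and ITD611. The shares of all genes for these last counts are not given here.

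Ammecr1, a gene of unsettled function, read 4.37 on ITD598, 5.16 on ITD611 and 3.19 on ITD602. The ITD602 value is under the low-value limit and ITD78 was as low (3.21), so the size of -1.58 is uncertain. Col5a1, a fibrillar collagen chain, read 6.69, 5.97 and 5.28 (-1.04, spread 0.72), with 7.49 on ITD78 and 9.72 on ITD613. Its other measured probe set differed by -0.26.

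Of 140 zinc finger genes kept, 4 were called lower, against 0.853% of all genes, while the median of the family was -0.01. These proteins bind DNA, and many silence transposons and genes through KRAB domains. Zfp62 read 5.15 on ITD598, 4.76 on ITD611 and 3.66 on ITD602 (-1.29, spread 0.39). The ITD602 value is under the low-value limit, so the size is uncertain, and its other measured probe set differed by -0.11. Zfp982 read 6.10, 5.91 and 4.83 on a probe set ending in _x_at. Its other measured probe set, which does not carry that mark, differed by -0.16. Whether the signal attributed to Zfp982 is shared with related genes was not tested. Zfp979, which lies 2 genes from Zfp982, read 6.65, 6.33 and 5.55 on its single measured probe set. Zfp141 read 5.26, 4.93 and 4.26.

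Rb1cc1 and Pnrc2 came next by size after Col5a1. Rb1cc1, a scaffold that starts autophagosomes, read 4.78, 5.03 and 3.92. Pnrc2, which recruits decapping enzymes in mRNA decay, read 7.52, 7.35 and 6.49. The RNA-binding protein gene Rbm26 read 7.21, 7.20 and 6.31, and on the other 2 arrays 7.17 and 7.20. Their other measured probe sets differed by less, -0.11 for Rb1cc1, -0.35 for Pnrc2 and -0.22 to -0.07 for Rbm26.

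Malat1, a long noncoding RNA kept in the nucleus, read 8.76 on ITD598, 9.61 on ITD611 and 8.24 on ITD602 (-0.94, spread 0.85). Its 4 other measured probe sets gave -1.13, -0.71, -0.27 and 0.02, so the probe sets of this gene differed in size. Cmtm6, which keeps PD-L1 at the cell surface, read 7.12, 6.75 and 6.03, and ITD613 had the same level as ITD602. Its other probe set differed by 0.17, the opposite way. B3galnt2, a sugar transferase that modifies dystroglycan, read 7.19, 7.10 and 6.26 and gave 0.05 on its other measured probe set.

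This disagreement between probe sets was general on the lower side. Of the 65 genes, 24 had 1 measured probe set and 41 had others. In 6 of these 41 another probe set was called too (Hbb-bh1, Hbb-y, Malat1, Tra2a, Ppp1cb and Ube3a, the last 3 named after their values were seen), and in Hbb-bh1 and Hbb-y all of them were. Of 70 other probe sets, 48 (68.6%) had the same sign, against 59.0% in genes that were not called. The latter share pools genes of both directions, and ITD602 lay above the mean in 63.6% of all genes. The shares thus have unlike baselines. The 70 other probe sets had a median difference of -0.11, against -0.73 for the probe sets used. Those used had to pass 1.5-fold for the gene to be called, and the others did not. Part of this gap thus follows from the rule. For Fli1, named after its values were seen, another probe set differed by 0.63 the other way.

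The kinds of probe set differed as well. Those ending in _x_at stood for 14 of 65 genes called lower (21.5%), for 0 of 19 called higher, and for 5.72% of all genes kept. On the higher side, 17 of 19 genes had 1 measured probe set, so the array holds little that could check them. The 3 other probe sets of the remaining 2 genes had the same sign, and 0 of them were called.

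**Figure D4:**
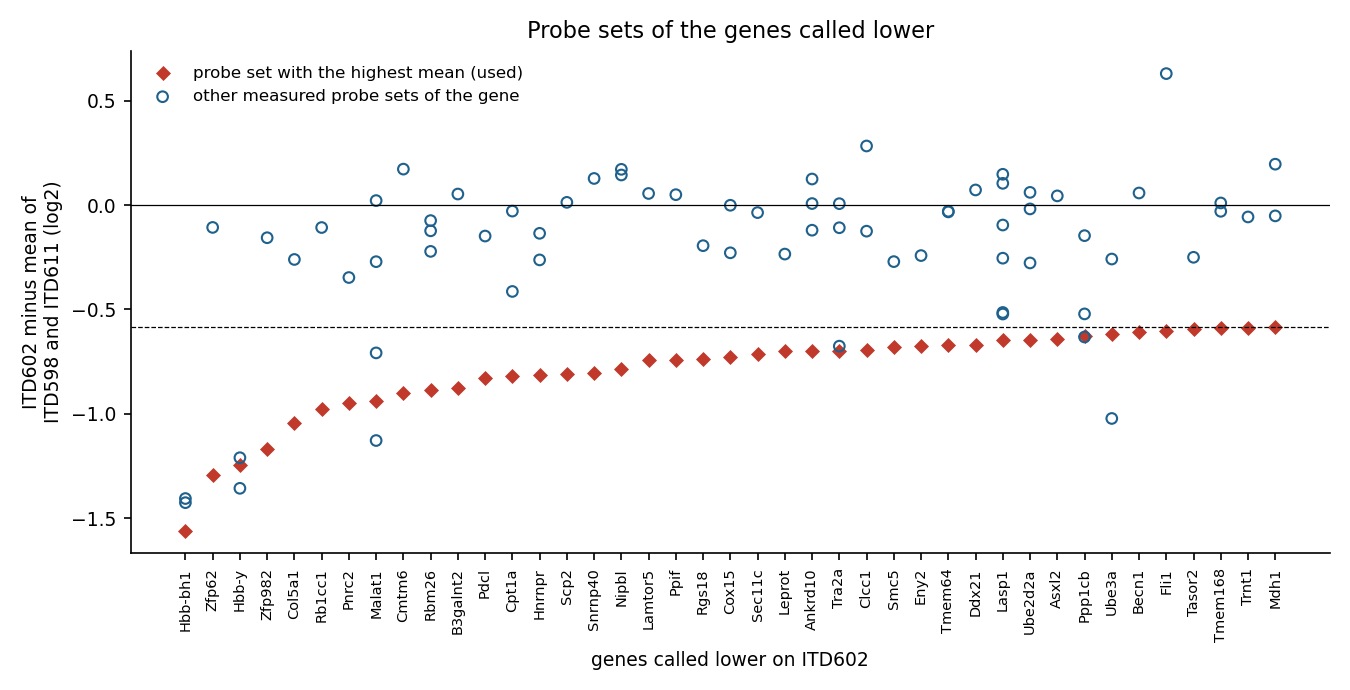
Difference of ITD602 from the mean of ITD598 and ITD611 (log2, y axis) for the 41 genes called lower that have more than 1 measured probe set, ordered by the probe set used (diamonds), with the other measured probe sets of the gene as circles. The circles of Hbb-bh1 and Hbb-y lie with their diamonds below -1.2, whereas most other circles lie near 0 (median -0.11). Diamonds had to pass 1.5-fold for the gene to be called, and circles did not.

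Glycolysis genes, which turn glucose into pyruvate and lactate, showed no called member among 17 kept of 21 measured. Over all genes kept, 1.1% were called. ITD602 lay above the mean of the others in 14 of 17 (82.4%, against 63.6% of all genes), with a median difference of 0.16 against 0.05. The same list had a median of -0.10 for ITD598 minus ITD611.

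Of the glucose entry steps, the transporters Slc2a1 (7.31 on ITD598, 7.31 on ITD611 and 7.43 on ITD602) and Slc2a3 (9.42, 9.58 and 9.80) and the hexokinase Hk1 (6.53, 6.68 and 6.96) were highest on ITD602, and the hexokinase Hk2 differed by 0.16. The other measured probe sets of Slc2a1 differed by 0.24 and 0.50, and that of Slc2a3 by 0.26. Among the phosphofructokinases Pfkl read 4.38, 4.59 and 5.01, the largest difference of the list at 0.53. Its other measured probe set read 3.87 on each of the 3 arrays, with no difference. Against ITD598 alone the Pfkl difference was 0.63 on the probe set used. Pfkm differed by 0.11 and Pfkp by -0.002, but the other measured probe set of Pfkp differed by -0.43.

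Further along the pathway Aldoa (9.27, 9.40 and 9.58), Tpi1 (9.07, 9.09 and 9.33), Pgk1 (10.6, 10.7 and 10.8), Pkm (7.71, 7.84 and 8.12) and Ldha (9.50, 9.65 and 9.74) were each highest on ITD602 on the probe set used. The other measured probe sets of Pgk1 differed by -0.05 and 0.03, and those of Tpi1 by 0.37 and -5.2e-06. Those of Aldoa differed by 0.03 to 0.37. Pgam1 differed by 0.004. On the probe sets used, the lactate and pyruvate exporter Slc16a1 was the lowest of the list at -0.25 (9.70, 9.71 and 9.45). Of the regulators, Pdk3 differed by 0.21, Pfkfb4 by 0.07 and Pdk1 by -0.06, with 0.18 on the other measured probe set of Pdk1. Aldoc, Eno2, Pfkfb3 and Slc16a3 had means below the limit. The hypoxia response list, which shares the factor HIF with glycolysis, had 0 of 17 called and a median of 0.05.

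Growth and signalling lists had few called members. Only 1.1% of all genes kept were called, so counts in lists this short say little about them. STAT5 targets had 0 of 9 called and a median of 0.05. Of the STAT5 targets left out by the filter, Il2ra, the alpha chain of the interleukin-2 receptor, named after its values were seen, read 2.62 on ITD598, 3.47 on ITD611 and 4.30 on ITD602. Both reference values lie under the low-value limit, so the difference of 1.26 (spread 0.84) has an uncertain size, and ITD602 was the highest of the 5 arrays. ERK output genes had 0 of 8 called and a median of 0.10, immediate early genes 0 of 8 and 0.01, and FOXO targets 0 of 6 and -0.10. In ribosome biogenesis 1 of 37 was called, the RNA helicase gene Ddx21 at 8.47 on ITD598 and ITD611 and 7.80 on ITD602. Its other measured probe set differed by 0.07, and the list's median was 0.03.

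Mitochondrial ribosomal proteins had a median of 0.13, with 65 of 76 above the mean, and aminoacyl-tRNA synthetases, which charge tRNAs, one of 0.13 with 15 of 18 above it. Over all genes kept, ITD602 lay above the mean in 63.6%, with a median of 0.05. For ITD598 minus ITD611 the medians of these lists were 0.06 and -0.10. None of either list was called. Aars, the alanine enzyme, had the largest difference of the latter, 0.39 (7.63 on ITD598, 7.74 on ITD611 and 8.07 on ITD602). Of the 38 lists, 31 had no called member, where 1.1% of all genes kept were called.

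**Figure D5:**
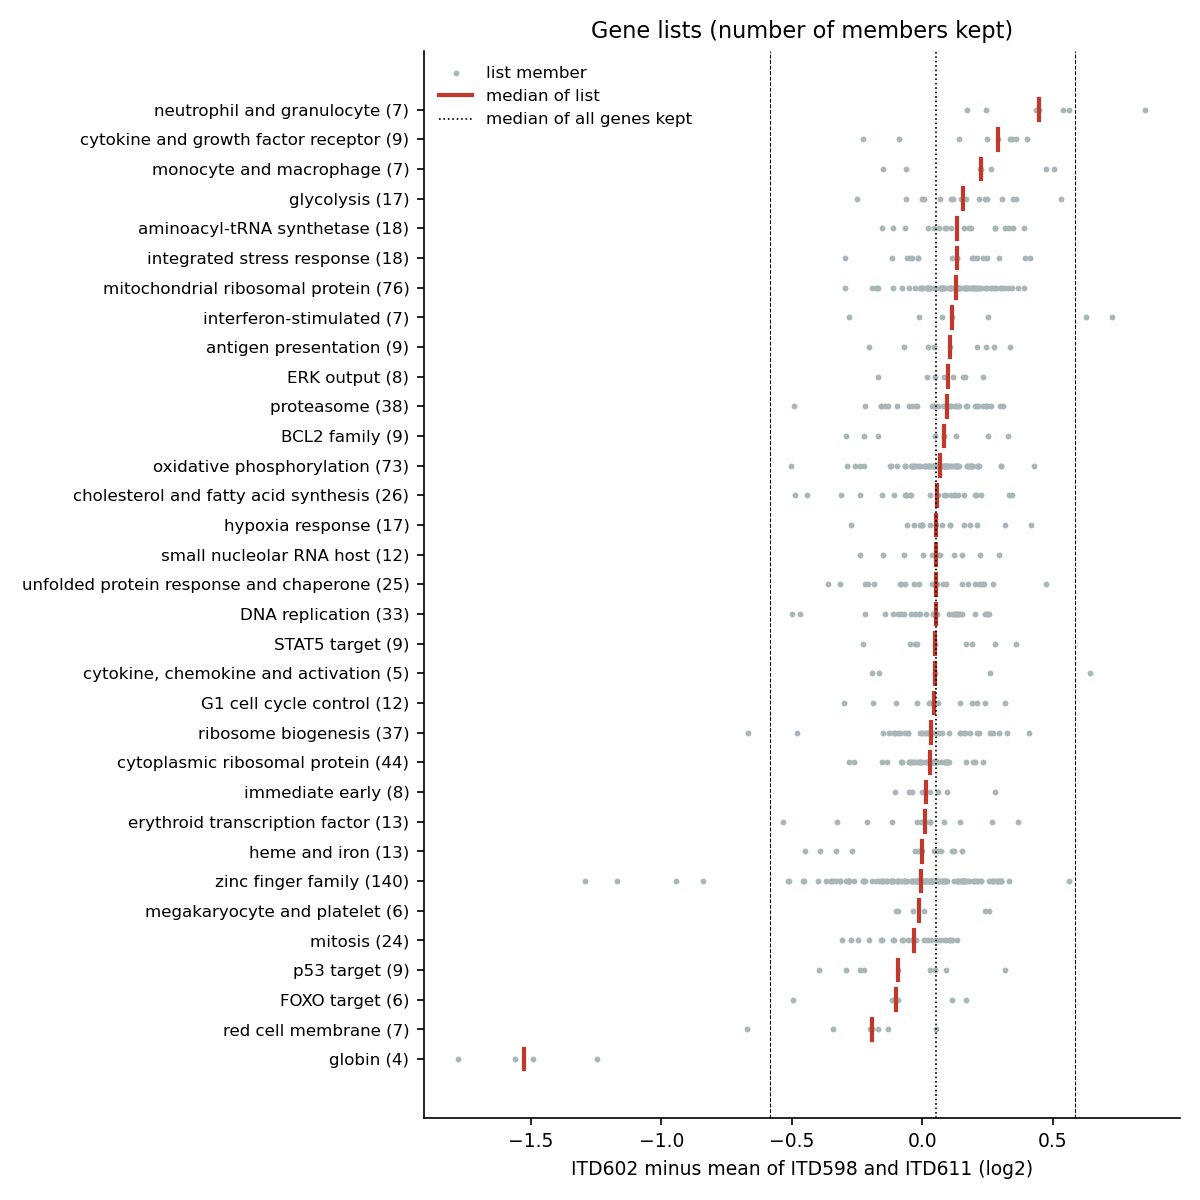
Difference of ITD602 from the mean of ITD598 and ITD611 (log2, x axis) for the members of each gene list that passed the filter (grey points) with the list's median (red bar); lists with at least 5 such members and the globins are shown, the dotted line is the median of all genes (0.05), and dashed lines mark 1.5-fold. The globins (median -1.53) lie away from all other lists, whose medians run from -0.19 to 0.45.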

How the data were processed

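The authors deposited log2 values made with RMA, per the submitters' processing notes; its version and chip definition are not given in the sources used here. RMA corrects background and equalises array distributions, so a shift of all genes cannot be seen. The arrays hold 45101 probe sets, with 23.7% to 30.3% of values on the compared arrays shared by at least 100 probe sets. Of these probe sets, 34958 had 1 symbol in GEO's platform annotation, 932 several, 9160 none and 64 were controls, of which 13 carried a gene and were left out. Gene IDs of 34741 matched RefSeq (GRCm38.p6), with 0 renamed.

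Differences, calls and lists were computed in Python 3.11.15 with pandas 2.3.3, and the call rule was checked on simulated data. The simulated shifts were larger than most called differences, and the noise was alike for every gene. That check therefore does not bear on calls near 1.5-fold. The genes named were up to 15 called per direction, up to 4 called per list, Flt3, and the globin and glycolysis lists. Others illustrate lists or spread and were chosen after their values were seen. Clone names were left out. Members and lists were chosen with earlier results of these data known. With 1 array per construct no test was possible, and the number of arrays limits the precision. Other filters, probe set rules, scalings and reference arrays were tried.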

Additional observations from a re-analysis of the deposited data

How the results depend on the processing

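The 11 alternatives concern probe sets, filter, scaling and arrays. Of 33 called genes named by the rule, 10 kept direction and 1.5-fold size under all 11 (Rab5c, Trem1, Ifitm3, Ammecr1, Hbb-bh1, Hba-x, Zfp62, Hbb-y, Zfp979 and Zfp141; Ammecr1 and Zfp62 are under the low-value limit on ITD602), 22 fell under 1.5-fold in at least 1, and 1 reversed: Hbb-b2 differed by 0.58 once _x_at and _s_at probe sets were dropped, where only its low probe set is left. Alternatives that change only the filter leave a gene's difference as it was, so they could not alter its size. Trem1, Ammecr1 and Zfp62 (means 4.67, 4.24 and 4.52) do not pass the stricter filter, a mean at least 1 above the limit. Genes with 1 probe set, such as Rab5c and Hba-x, likewise cannot move when probe sets are averaged. The 19 genes 1.5-fold higher became 37 with a filter on the highest array (60th percentile), 81 with no filter, 10 with a stricter filter and 6 after lowess correction. The 65 lower became 20 with the mean of all probe sets, 15 of them shared with the 65, and 127 with no filter. The count of 0 higher at 2-fold became 2 with the 60th percentile filter, 2 with no filter and 2 against the mean of the other 4 arrays; the 8 lower became 3 with the mean of probe sets. Against 1 reference array, where no spread is left to apply, the counts ran from 33 (without ITD598) to 36 (without ITD611) higher, 57 to 109 lower, 2 to 5 higher at 2-fold and 9 to 14 lower at 2-fold. No paired analysis was possible because each construct has 1 array and the call comes from no test.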
